A study of Mus musculus with 4 samples.

Results

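Class I antigen presentation was described through 10 genes of the 24428 symbols counted in these libraries, chosen by symbol as peptide-loading, immunoproteasome and class I genes: Tap1, Tap2, Tapbp, B2m, Psmb8, Psmb9, Psmb10, H2-K1, H2-D1 and Nlrc5. The libraries were made from poly(A) RNA of cultured mouse embryonic stem cells (129SvEv, passages 15 to 20) grown in serum and LIF, a cytokine that keeps such cells undifferentiated. Every library came from Smarca4flfl CreER cells, whose recombinase 4-hydroxytamoxifen switches on to remove Smarca4. All 4 carry the same genotype label, an acute deletion, so the groups rest on the treatment label. The protein, BRG1, is an ATPase that drives SWI/SNF chromatin remodeling. The compared groups were ethanol (n = 2) and 0.8 uM 4-hydroxytamoxifen (n = 2), each given for 48 h, with RNA taken 72 h after the treatment began. Tamoxifen-treated cells without the loxP sites were not analysed here, so loss of Smarca4, the drug and the active recombinase cannot be told apart. The labels do not say that libraries of a group came from separate cultures, so each p-value measures only the spread between these libraries, which may be technical.

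Class I molecules carry peptides from inside the cell to its surface, where cytotoxic T cells read them. Proteasomes cut proteins to peptides, and 3 subunits that interferon induces (Psmb8, Psmb9, Psmb10) can replace the constitutive catalytic subunits. The TAP transporter (Tap1 with Tap2) moves the peptides into the endoplasmic reticulum, tapasin (Tapbp) helps to load them, and the class I heavy chain (H2-K1, H2-D1) leaves for the surface with its light chain, beta-2 microglobulin (B2m). Nlrc5 is a transcriptional coactivator of these genes. Embryonic stem cells are known for little class I at their surface.

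Reads in genes ran from 13458463 to 27086142 per library. The share of counted reads in no gene was 51.7 and 40.8% in ethanol replicates 1 and 2. It was lower in tamoxifen replicates 1 and 2, at 37.6 and 35.0%. The part of this difference in the results was not tested. The level of Smarca4 itself, in CPM (depth-scaled counts with TMM factors), was 328 and 409 with ethanol against 68.4 and 68.7 with tamoxifen (log2 fold change -2.43, edgeR adjusted p = 1.08e-05; -2.80 with GC correction), as the labels have it. The 10 stem cell markers checked were measured in all libraries and summed to between 5470 and 5904 CPM, with Klf4 (0.62 log2) and Dppa5a (0.53) called higher and Tdgf1 (-0.52) lower. The calls of Klf4 and Tdgf1 ended with GC correction, and those of Dppa5a and Tdgf1 in fits lacking a tamoxifen library. With GC correction, 3 of the 10 markers were called higher and 2 lower (background 10.1% higher and 10% lower). Of 14479 tested genes, 44.5% differed between the treatments (edgeR quasi-likelihood test, Benjamini-Hochberg adjusted p under 0.05), 21.5% higher and 22.9% lower with tamoxifen. These are 3119 and 3322 genes. Scaled by total counts, 4082 were higher and 2519 lower. That scaling put the median gene at a log2 fold change of 0.12, in place of -0.01. Differences followed the GC content of the transcript across genes (Spearman 0.645 over genes, which are not independent replicates). The difference between the ethanol libraries, replicate 2 minus 1, also followed GC content, at -0.259. Whether the trend between the treatments is technical or part of the response cannot be told apart, and removing it takes out either. A second fit had every library's GC trend removed. Its values are given beside those of the first as the value with GC correction. This is a fit that called 10.1% of genes higher and 10% lower. The class I genes had a median GC content of 56.1%, against 50.5% over tested genes.

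All 10 class I genes passed the filter on low counts. Tap1, Tap2, Tapbp and H2-D1 were higher with tamoxifen, none was lower, and 6 were not called (edgeR quasi-likelihood test, adjusted p under 0.05). The background over all tested genes was 21.5% higher and 22.9% lower. The rises of the called class I genes were 1.52- to 2.27-fold. The median log2 fold change of the 10 was 0.38, against -0.01 over all tested genes. Both tamoxifen libraries lay above both ethanol libraries for 5 of the 10, where 37.0% of all tested genes did so, and in 74.0% of tested genes the groups did not overlap in either direction. With GC correction Tap1 alone of the 10 was called higher and H2-K1 alone lower, close to the background of 10.1% higher and 10% lower. The corrected median was 0.13, against 0.01 over all tested genes. Without tamoxifen replicate 1 the uncorrected median was 0.24 and the corrected one -0.03. The corrected fit called none of the 10 higher or lower when either tamoxifen library was left out.

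**Figure D1:**
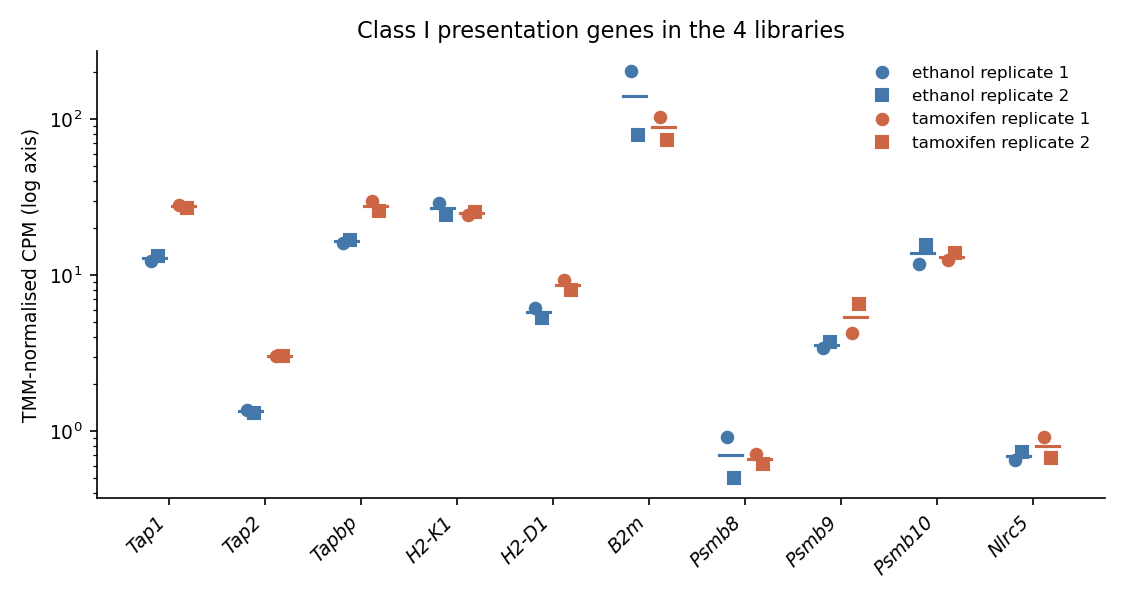
Levels of the 10 class I genes as TMM-normalised CPM on a log axis, with 1 point per library and a bar at the mean of each group (n = 2). The tamoxifen points of Tap1, Tap2, Tapbp, H2-D1 and Psmb9 lie above their ethanol points, and the ethanol points of B2m lie far apart, at 204 and 78.7 CPM.

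Among the 10 genes, those of the peptide transporter had the largest differences. Tap1 had 12.4 and 13.2 CPM in ethanol replicates 1 and 2 and 28.2 and 27.05 CPM in tamoxifen replicates 1 and 2. The groups were well apart for Tap1, and libraries of a group differed little. Its mean went from 12.8 ± 0.588 to 27.6 ± 0.822 CPM (SD, n = 2), a log2 fold change of 1.11 ± 0.16 (SE; edgeR quasi-likelihood test, adjusted p = 0.000320). With GC correction the log2 fold change of Tap1 was 0.65 (edgeR adjusted p = 0.0129), and the corrected call ended without tamoxifen replicate 1 (0.61, adjusted p = 0.114), and likewise if replicate 2 was the one left out (0.69, adjusted p = 0.0893).

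Tap2, whose product pairs with that of Tap1, showed a fold of the same order at a lower level, with 1.37 and 1.31 CPM under ethanol and 3.04 and 3.02 CPM under tamoxifen. These rest on 21 and 34 reads in ethanol and 43 and 54 in tamoxifen. The log2 fold change of Tap2 was 1.18 ± 0.28 (SE; edgeR adjusted p = 0.00521). With GC correction it was 0.74 and not called (edgeR adjusted p = 0.0804). Tapbp, the loading chaperone tapasin, stood at 16.1 and 16.7 CPM with ethanol and 29.7 and 25.8 CPM with tamoxifen. The groups of Tapbp did not overlap, and its log2 fold change was 0.75 ± 0.16 (SE; edgeR adjusted p = 0.00286). With GC correction it was 0.30 and not called (edgeR adjusted p = 0.209). Without GC correction, Tap1, Tap2 and Tapbp were called higher under every alternative scaling, filter, tool and threshold tried and with each library left out. Fibroblast markers also rose with tamoxifen, in 14 of 19 tested cases (median 0.81 log2; background 21.5% higher) and 14 of 19 with GC correction (0.71; background 10.1% higher). The corrected fit called 9 without tamoxifen replicate 1 and 7 without replicate 2. The 20 listed markers summed to 2031 to 2330 CPM with ethanol and to 3156 to 3292 CPM with tamoxifen. The largest part of each sum was Fn1, with 1535 and 1357 CPM under ethanol and 1728 and 1830 CPM under tamoxifen. Fn1 was not called in either fit (0.30, and 0.11 with GC correction). The part of the fibroblast markers in the rise of the class I genes was not tested. In bulk RNA, a change in the number of cells of a type and a change in RNA per cell cannot be told apart.

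**Figure D2:**
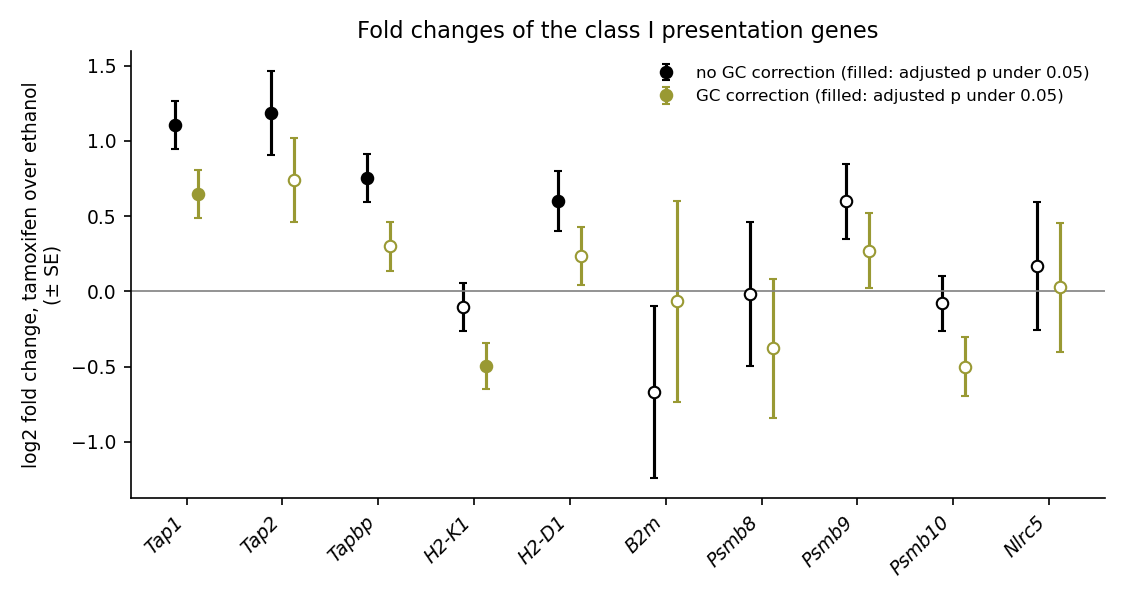
Log2 fold change of each class I gene, tamoxifen over ethanol, with its SE (n = 2 libraries a group), without and with GC correction. Tap1 is above 0 and called in both fits, at 1.11 and 0.65, and Tap2, Tapbp and H2-D1 are called only without the correction.

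Tap1 lies head to head with Psmb9, the gene of an immunoproteasome subunit. In RefSeq's annotation of GRCm38.p6, their start sites are 226 bases apart on opposite strands, so the 300-base windows around them share 275 bases. The Tap1 window (250 bases before the start site and 50 from it on, chr17:34187306-34187605, plus strand) is shown because both genes start in it. Capitals mark a CCAAT match, the only match to the 4 motifs searched.
Tap1: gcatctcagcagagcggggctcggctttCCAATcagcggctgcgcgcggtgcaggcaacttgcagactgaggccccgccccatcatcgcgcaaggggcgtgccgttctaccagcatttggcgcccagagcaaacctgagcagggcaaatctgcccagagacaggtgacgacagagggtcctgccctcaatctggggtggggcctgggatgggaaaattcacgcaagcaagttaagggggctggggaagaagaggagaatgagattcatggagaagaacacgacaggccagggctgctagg

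Psmb9 had 3.39 and 3.72 CPM with ethanol and 4.24 and 6.50 CPM with tamoxifen. Tamoxifen replicate 2 stood apart from the other 3 libraries, while replicate 1 was close to the ethanol libraries. The log2 fold change of Psmb9 was 0.60 ± 0.25 (SE; edgeR adjusted p = 0.0660) and missed the threshold. It passed with no filter on low counts, and with total counts or upper-quartile factors. It also passed when ethanol replicate 2 (0.69) or tamoxifen replicate 1 (0.86) was left out, whereas leaving out tamoxifen replicate 2 gave 0.25. With GC correction it was 0.27 (edgeR adjusted p = 0.479). Whether Psmb9 and Tap1 differ in fold was not tested.

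The other immunoproteasome genes were not called in either fit of all 4 libraries. Psmb10 had 11.8 and 15.7 CPM with ethanol and 12.4 and 13.8 CPM with tamoxifen, with overlapping groups. Its log2 fold change was -0.08, and 2 SE either way reached from -0.45 to 0.29. The sign was positive with total counts (0.05), and with GC correction the value was -0.50 (edgeR adjusted p = 0.0856). With GC correction and without ethanol replicate 1, the value for Psmb10 was -0.73. Psmb8 was near the limit of detection, with 14 and 13 reads under ethanol and 10 and 11 under tamoxifen. An exact Poisson 95% interval for 14 reads runs from 7.65 to 23.5 and covers counting error only. A small change of Psmb8 could therefore not be told from counting error at this depth. Its log2 fold change of -0.02 had bounds of -0.97 and 0.94 at 2 SE either way, and with GC correction the value was -0.38.

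Per kb of transcript, the immunoproteasome genes stood far below the constitutive subunits that they can replace. Psmb8 had 0.306 to 0.560 CPM per kb over the 4 libraries, and its counterpart Psmb5 had 47.6 to 77.1. Psmb9 reached 1.87 to 2.46% of the level of Psmb6, and Psmb10 reached 5.28 to 6.0% of that of Psmb7. Psmb8 stood at 0.491 to 1.09% of Psmb5. In CPM, Psmb5 rose from 44.5 ± 2.50 to 63.9 ± 7.68 (SD, n = 2; log2 fold change 0.52, edgeR adjusted p = 0.0146), a call that ended with GC correction (0.11) and without tamoxifen replicate 2. Psmb6 had a log2 fold change of 0.39 (edgeR adjusted p = 0.0653). It passed with upper-quartile factors (0.44), with total counts (0.51) and without ethanol replicate 1 (0.39), and was 0.03 with GC correction. Psmb7 had a log2 fold change of -0.02 (edgeR adjusted p = 0.923). The sign for Psmb7 turned with total counts (0.10), with upper-quartile factors (0.04) and with GC correction (0.11, and 0.58 with a call where the longest transcript of any kind gave the GC content).

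**Figure D3:**
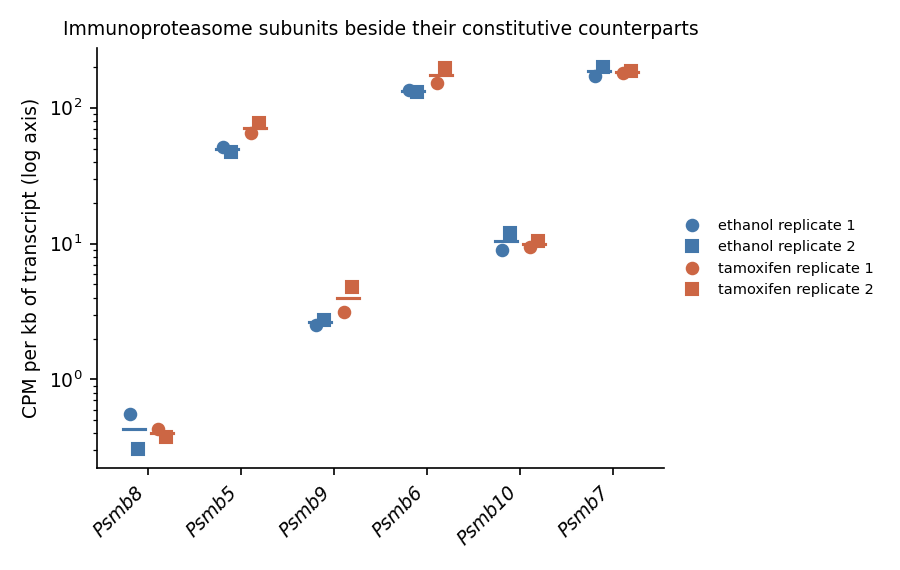
Levels of the immunoproteasome subunit genes beside those of their constitutive counterparts, in CPM per kb of the longest coding transcript on a log axis, with 1 point per library and a bar at the group mean (n = 2). In each library Psmb8, Psmb9 and Psmb10 lie below Psmb5, Psmb6 and Psmb7, and Psmb10 is nearest, at 5.28 to 6.0% of Psmb7.

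The classical heavy chain genes H2-K1 and H2-D1 are close copies, and how reads matching both were counted is not given in the sources used here, so their counts are uncertain. Their promoters show the likeness. Over 239 aligned bases of the RefSeq windows (GRCm38.p6), 88.3% were identical. Both windows are shown because they hold, in the same order, the kappa B and interferon-response sequences known from class I promoters, followed by 2 CCAAT matches. Capitals mark these matches in the windows of H2-K1 (chr17:34000298-34000597, minus strand, 1 of 2 windows listed for this gene) and H2-D1 (chr17:35262844-35263143, plus strand).
H2-K1: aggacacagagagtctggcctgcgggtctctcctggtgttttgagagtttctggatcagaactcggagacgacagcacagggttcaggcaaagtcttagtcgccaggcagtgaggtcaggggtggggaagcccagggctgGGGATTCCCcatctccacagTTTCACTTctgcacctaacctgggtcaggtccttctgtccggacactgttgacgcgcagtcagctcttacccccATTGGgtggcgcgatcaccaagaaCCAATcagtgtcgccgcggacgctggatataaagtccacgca
H2-D1: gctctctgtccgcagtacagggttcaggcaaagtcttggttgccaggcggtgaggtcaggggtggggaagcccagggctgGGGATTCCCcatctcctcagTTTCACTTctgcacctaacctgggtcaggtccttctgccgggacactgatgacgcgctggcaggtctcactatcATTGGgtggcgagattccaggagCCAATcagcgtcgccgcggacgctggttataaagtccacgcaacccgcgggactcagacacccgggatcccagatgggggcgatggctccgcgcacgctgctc

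The motifs were searched on both strands as GGGATTCCC for the kappa B site, AANNGAAA for the core that interferon regulatory factors bind, CCAAT for the box that NF-Y binds, and TTCNNNGAA for the GAS element. A window for the symbol was found for 8 of the 10 genes, all but Tap2 and Nlrc5. This exact kappa B sequence was in 0.353% of all 32851 windows of this length, and among the class I genes in H2-K1 and H2-D1. It is the form known from class I promoters, so its presence in them was largely fixed by that choice. Other forms of kappa B site were not searched, so their presence in the remaining windows is not known. The interferon-response core was in 23.9% of all windows and in H2-K1, H2-D1 and B2m. CCAAT was in 37.4% of all windows and in 6 of the 8, where the match that Tap1 and Psmb9 share counts for both, and GAS in 8.30% of all and in Psmb8. The Psmb10 window held no match, and no match overlapped another. These are matches of letters in a window and not measured binding sites.

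**Figure D4:**
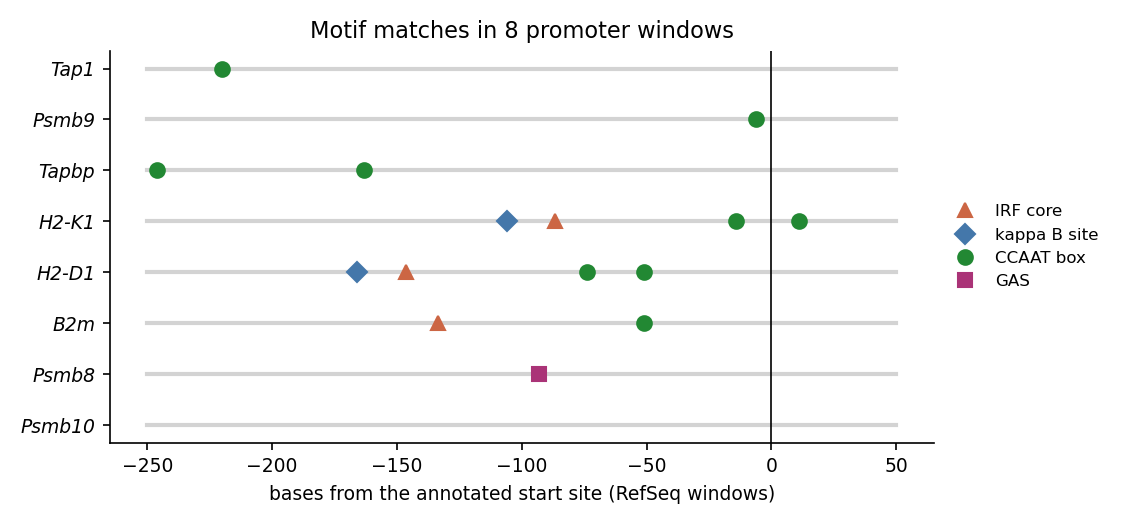
Position of each motif match in the promoter windows of 8 class I genes, in bases from the annotated start site at 0, with 1 row per gene and 1 symbol per kind of motif. H2-K1 and H2-D1 carry the exact kappa B sequence searched and the interferon-response core side by side. Of the motifs searched, Tap1, Psmb9 and Tapbp hold only CCAAT matches.

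H2-D1 had 6.18 and 5.33 CPM with ethanol and 9.33 and 8.06 CPM with tamoxifen. The groups did not overlap, and the log2 fold change was 0.60 ± 0.20 (SE; edgeR adjusted p = 0.0264). This call was near the threshold. DESeq2 did not make it (adjusted p = 0.0880), and it ended with GC correction (0.23). It also ended when ethanol replicate 2 (0.50) or either tamoxifen library (0.49 and 0.70) was left out. H2-K1 had 29.2 and 24.5 CPM with ethanol and 24.3 and 25.6 CPM with tamoxifen. Its groups overlapped, with a log2 fold change of -0.10 and bounds of -0.42 and 0.22 at 2 SE either way. With GC correction H2-K1 was called lower (-0.49, edgeR adjusted p = 0.0334), but not where the longest transcript of any kind gave the GC content (-0.38, adjusted p = 0.0933) and, of the fits that left out 1 library, only in the one lacking ethanol replicate 2 (-0.56). With total counts its sign was positive (0.02). The difference between H2-D1 and H2-K1 in fold was not tested.

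B2m, the light chain that all class I molecules share, varied most between libraries of 1 group. It had 204 CPM in ethanol replicate 1 and 78.7 CPM in ethanol replicate 2, and 104 and 73.3 CPM in the tamoxifen libraries. Ethanol replicate 1 was high and the other 3 libraries lay between 73.3 and 104 CPM, so the groups overlapped. Each value rests on 1309 to 3131 reads, so depth does not limit it. Ethanol replicate 1 also had the largest share of reads in no gene, at 51.7%, and the part of this in its B2m value was not tested. The log2 fold change was -0.67 ± 0.57 (SE; edgeR adjusted p = 0.417). In edgeR fits with 1 library left out, it was 0.16 without ethanol replicate 1 (edgeR adjusted p = 0.444) and -1.19 without ethanol replicate 2 (edgeR adjusted p = 2.48e-11), so which ethanol library is kept decides both the direction and the call. With GC correction B2m had -0.07 (edgeR adjusted p = 0.963), and its transcript is poor in G and C, at 41.2%. In that fit B2m was called higher without ethanol replicate 1 (0.84) and lower without ethanol replicate 2 (-0.63).

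Nlrc5, the coactivator of class I genes, was at the edge of detection in every library. It had 10 and 19 reads with ethanol and 13 and 12 with tamoxifen, at 0.651 to 0.919 CPM, with overlapping groups. Its log2 fold change of 0.17 had bounds of -0.68 and 1.01 at 2 SE either way. They lie on both sides of 0, so the direction of any change in Nlrc5 was not settled at this depth. Without tamoxifen replicate 1 the value was -0.05, and with GC correction it was 0.03.

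Per kb of transcript, the order of levels in the ethanol libraries began with B2m at 164 ± 103 CPM per kb (SD, n = 2) and H2-K1 at 16.6 ± 2.04. Psmb10 (10.5 ± 2.08), Tapbp (5.67 ± 0.143) and Tap1 (4.33 ± 0.199) followed, each with a range apart from that of its neighbours. H2-D1 (2.74 ± 0.286) and Psmb9 (2.63 ± 0.176) overlapped, as did Psmb8 (0.433 ± 0.179) and Tap2 (0.388 ± 0.0128), and Nlrc5 was lowest at 0.0911 ± 0.00729. In the tamoxifen libraries the ranges of Psmb10 (10 ± 0.719), Tapbp (9.57 ± 0.960) and Tap1 (9.36 ± 0.279) overlapped, as did those of H2-D1 (4.14 ± 0.427) and Psmb9 (3.97 ± 1.18). B2m (103 ± 25.2) and H2-K1 (15.4 ± 0.586) stayed at the top, and Tap2 (0.881 ± 0.00334) lay above Psmb8 (0.406 ± 0.0395).

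None of the other genes of the pathway was called higher in the uncorrected fit or in the GC-corrected one. Of 28 listed, 24 passed the filter on low counts. These 24 are genes for peptide trimming, proteasome activation, assembly, loading and non-classical class I molecules. None of the 24 was higher and 8 were lower with tamoxifen (edgeR adjusted p under 0.05, background 21.5% higher and 22.9% lower). The median log2 fold change over the 24 was -0.27. Tpp2, a peptidase that trims proteasome products, fell from 312 ± 40.1 to 132 ± 15.0 CPM (SD, n = 2; log2 fold change -1.24, edgeR adjusted p = 0.000210; -0.64 with GC correction, and -0.34 and not called where the longest transcript of any kind gave the GC content). The aminopeptidase gene Lap3 fell by 0.66 on the log2 scale and Psme1, a subunit of the proteasome activator PA28, by 0.65. Both were called with GC correction, at -0.46 and -0.94. In the corrected fit neither Tpp2 nor Lap3 kept its call in fits lacking a tamoxifen library. Without the correction Lap3 was not called without tamoxifen replicate 1, nor Psme1 without tamoxifen replicate 2. The lectin chaperone gene Canx fell by 0.72 and Erap1, the trimming peptidase of the endoplasmic reticulum, by 0.83, and neither was called with GC correction (-0.16 and -0.23), nor Canx without tamoxifen replicate 1. Erap1 was also not called by DESeq2, nor when ethanol replicate 2 or either tamoxifen library was left out. Calr, the chaperone of the loading complex, had -0.03 and Pdia3, the disulfide isomerase there, -0.32, and neither passed (edgeR adjusted p = 0.902 and 0.122). Pdia3 was called lower without ethanol replicate 1 (-0.45), and with GC correction it had -0.07. The value for Calr was positive with total counts (0.10), upper-quartile factors (0.03) and GC correction (0.02). With GC correction 5 of the 24 genes were lower and none higher (background 10% lower and 10.1% higher). When tamoxifen replicate 1 was left out, the uncorrected fit called 3 lower and the corrected one 2. When replicate 2 was left out, they called 4 and 1. The corrected fit called 3 lower without ethanol replicate 2.

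Core proteasome subunit genes were lower in 4 of 14 cases and higher in 1 (edgeR adjusted p under 0.05; background 22.9% lower and 21.5% higher), with a median of -0.07 log2, which was 0.06 with GC correction. Those lower were the alpha subunit genes Psma3 (-0.79), Psma5 (-0.82), Psma4 (-0.69) and Psma1 (-0.65 log2). Of these, Psma5 alone was called with GC correction (-0.72). Without tamoxifen replicate 1, Psma1 was not called. Without GC correction the 1 gene higher was Psmb5, and that number changed when a library was left out. In the corrected fit of all libraries the 1 gene higher was Psma2, another alpha subunit gene, at 0.56 log2 (edgeR adjusted p = 0.0136). Without the correction Psma2 had -0.18 and was not called. The background of the corrected fit was 10.1% higher and 10% lower. With GC correction, leaving out either tamoxifen library left no core gene called.

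**Figure D5:**
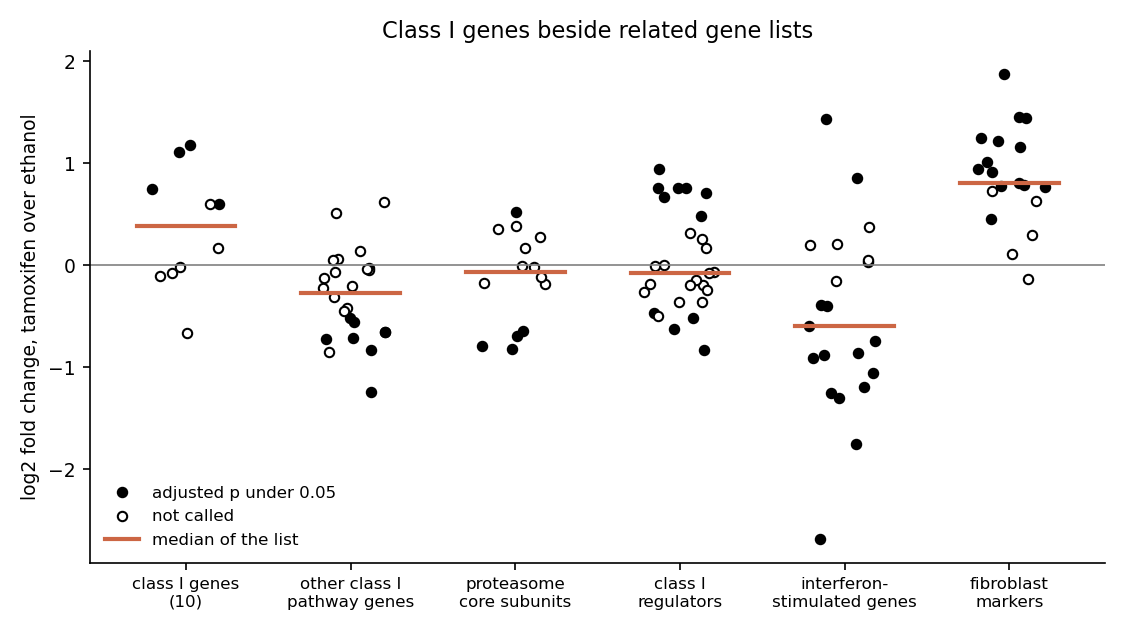
Log2 fold change, tamoxifen over ethanol (n = 2 a group), of every tested gene in the class I set and 5 related lists, without GC correction, with called genes filled and the median of each list as a bar. The class I genes spread from -0.67 to 1.18, interferon-stimulated genes lie mostly below 0 (13 of 21 called lower) and fibroblast markers mostly above it (14 of 19 called higher).

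Of 27 tested genes that act upstream of class I transcription, 7 were higher and 4 lower (edgeR adjusted p under 0.05, background 21.5% higher and 22.9% lower). Their median was -0.07 log2. The list holds activators beside the Polycomb genes Ezh2, Eed and Suz12, which encode repressors. Its counts and median are therefore no balance of activators. Ezh2 (-0.52) and Suz12 (-0.62) were among the 4 lower, and neither was called with GC correction (-0.11 and -0.03). Eed (-0.19) was not called in either fit. Rela, a NF-kappa B subunit gene, rose from 34.1 ± 7.18 to 65.3 ± 2.94 CPM (SD, n = 2), a log2 fold change of 0.94 (edgeR adjusted p = 0.00107), and the kinase gene Tyk2 of interferon receptors rose by 0.76. Neither was called with GC correction (0.38 and 0.32). Ifngr2, a chain of the interferon gamma receptor, rose by 0.76 and was called with the correction (0.82), but in neither fit without tamoxifen replicate 1. Nfyb, a subunit gene of the CCAAT-binding factor NF-Y, fell by 0.83 (-0.20, not called with GC correction). Of the other NF-Y subunit genes, Nfyc rose by 0.67 and was called in both fits (0.73 with GC correction). Nfya was called in neither (-0.15 in both). Irf1 (-0.18) and Rfx5 (-0.20 log2), which encode activators that bind class I promoters, did not pass (edgeR adjusted p = 0.444 and 0.327), and had -0.34 and -0.12 with GC correction. Irf1 was called lower in the corrected fit without ethanol replicate 1 (-0.50). With GC correction 4 of 27 were higher and none lower (background 10.1% higher and 10% lower). The uncorrected fit called 3 higher when tamoxifen replicate 2 was left out, and 2 lower when either tamoxifen library was. The corrected fit called 2 higher without tamoxifen replicate 1 and 1 without replicate 2.

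Interferon-stimulated genes that were called were mostly lower. Of 32 listed, 21 passed the filter on low counts, 13 of which were lower and 2 higher with tamoxifen (edgeR adjusted p under 0.05; background 22.9% lower and 21.5% higher). The median of the 21 was -0.60 log2, and -0.35 with GC correction. Eif2ak2, the RNA-activated kinase PKR, fell from 45.9 ± 6.67 to 22.03 ± 1.14 CPM (SD, n = 2; log2 fold change -1.06, edgeR adjusted p = 0.000460; -0.62 with GC correction). Gbp2, an interferon-induced GTPase, had 3.78 and 5.68 CPM with ethanol and 0.990 and 1.79 CPM with tamoxifen and fell by 1.75 on the log2 scale (-1.50 with GC correction). Ddx58, the RNA sensor RIG-I, fell by 0.74 (-0.48 with GC correction). All 3 were called in both fits, but in the corrected fit not when tamoxifen replicate 1 was left out, nor Eif2ak2 and Ddx58 when replicate 2 was. Oas1a, an oligoadenylate synthetase gene with close copies, had 35 reads with ethanol and 4 with tamoxifen over both libraries of a group, an ethanol-to-tamoxifen ratio of 6.76 after scaling (exact binomial 95% interval 2.42 to 26.2, counting error only). With GC correction 7 of the 21 were lower and 2 higher (background 10% lower and 10.1% higher). The 2 higher were the same in both fits, Ifi35 (1.43, and 1.18 with GC correction) and Cxcl10 (0.85 and 0.91). Ifi35 rests on 9 to 28 reads per library, and DESeq2 did not call it (adjusted p = 0.0508). Without tamoxifen replicate 1 the uncorrected fit called 8 lower, and the corrected fit 2. Without tamoxifen replicate 2 it called 10, and the corrected fit 1.

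Markers of blood cells, which carry much class I, were in part at or near 0 and in part measured. Ptprc (CD45) had 1 and 5 reads with ethanol and 0 and 0 with tamoxifen, Adgre1 had none in any library, and 7 of 14 markers passed the filter. Cd3e, a T cell receptor complex gene, had 55 and 40 reads with ethanol and 38 and 28 with tamoxifen, at 1.54 to 3.58 CPM. Cd3e, Cd74, Csf1r and Cd14 passed the filter and were not called in either fit. The summed level of the list was 87.3 to 88.2 CPM with ethanol and 30.3 to 36.2 CPM with tamoxifen. Most of it was Laptm5, a lysosomal membrane protein gene of blood cells, which fell from 73.4 ± 3.596 to 19.0 ± 3.03 CPM (SD, n = 2; log2 fold change -1.95, edgeR adjusted p = 4.35e-05; -2.33 with GC correction). Of the class II genes of the same gene complex, H2-Ab1 fell by 1.40 log2 (edgeR adjusted p = 0.00401) and H2-Eb1 rose by 1.74 (edgeR adjusted p = 0.00116), from 0.891 ± 0.121 to 2.93 ± 0.447 CPM (SD, n = 2). In the corrected fit H2-Ab1 had -1.85 and H2-Eb1 1.66, both called, though H2-Eb1 not without tamoxifen replicate 2. The part of these markers in the class I values was not tested. Among the fibroblast markers, Col1a1 rose from 66.3 ± 20.3 to 182 ± 0.0716 CPM (SD, n = 2) and Col6a1 from 6.07 ± 1.64 to 21.9 ± 1.05 CPM, whereas Lum did not pass the filter, with at most 6 reads. Acta2 (1.25) and Col5a1 (1.16 log2) were the other fibroblast genes with the smallest adjusted p. With GC correction these 4 were called higher, with 0.92 for Col1a1, 1.46 for Col6a1, 1.33 for Acta2 and 0.67 for Col5a1. Without it, Fn1 (0.30), Thy1 (0.73), Dcn (0.63), Pdgfra (0.11) and Twist1 (-0.14) were tested and not called. Of these, Dcn alone was called with GC correction (1.14), and Twist1 had -0.71. In the corrected fit Col5a1 lost its call if either tamoxifen library was missing.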

How the data were processed

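Reads per gene were counted in 4 poly(A) RNA libraries. The authors deposited raw counts per gene symbol for each library, per the file headers and values. The submitters' processing notes name CASAVA 1.8.2, Bowtie 1.1.1, HTSeq, DESeq2 and the build mm9, while the step each served, the annotation, strand use and treatment of multi-mapping reads were not stated there. Rows for reads in no gene, or in several, were kept out of library sizes (35.0 to 51.7% and 0.889 to 1.05% of counted reads).

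Genes were filtered with filterByExpr, which left 14479 of 24428, scaled with TMM factors and tested with edgeR 4.0.16 (quasi-likelihood, tamoxifen against ethanol, Benjamini-Hochberg over all tested genes) in R 4.3.3. The scripts were tested on simulated data. GC correction used a loess of each library's log2 deviation on the GC content of the longest protein-coding transcript (GENCODE vM21, GRCm38, matched by symbol for 99.4% of tested genes), as an offset. Promoter windows are RefSeq's (GRCm38.p6), and no coordinate was carried over to mm9. Levels per kb use the same transcript's length. Alternatives were other scalings and filters, DESeq2 1.42.0, limma voom (limma 3.58.1), other thresholds, a block for replicate number, and fits with 1 library removed. Genes named were the 10 class I genes, Smarca4, Psmb5 to Psmb7, Irf1, Rfx5, Calr, Canx, Pdia3, Erap1 and up to 4 called genes of each other list with the smallest adjusted p. Lum, Ptprc, Adgre1, Cd3e, Cd74, Csf1r, Cd14, Ezh2, Eed and Suz12 were named after their values were seen. So were Nfya, Nfyc, Psma2, Fn1, Thy1, Dcn, Pdgfra, Twist1, Ifi35 and Cxcl10. A further gene of the rule is not reported here. The class I genes and the lists were chosen with earlier results of these data known.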

Additional observations from a re-analysis of the deposited data

How the results depend on the processing

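Without GC correction, 585 of 641 alternative values of the 46 named genes kept their direction and side of the threshold, 24 lost the call, 15 gained one and 17 turned sign. With GC correction these were 181 of 322, with 112, 7 and 22. The cause of these shifts was not tested. Groups of 2 libraries and counts of 10 to 54 reads for Tap2, Psmb8 and Nlrc5 limit what could be called, and leaving out a library leaves 1 sample in its group, taken to vary as much as the other group's pair. Replicate numbers are shared by the groups, but the labels do not tie them, and with 2 pairs the correlation of the deviations (0.234) does not show a pairing. With the replicate number as a block, 5 class I genes were higher, among them Psmb9 (edgeR adjusted p = 0.0215), and 3919 genes in all were higher and 4168 lower. In that fit Psmb6 was also called higher (0.38, edgeR adjusted p = 0.00886) and Pdia3 lower (-0.31, edgeR adjusted p = 0.0259). With GC correction, the counts that moved became 1467 higher and 1450 lower of all genes, 1 higher and 1 lower of class I genes, 5 lower of other pathway genes, 1 lower of core proteasome genes, 4 higher and 0 lower of regulators, 7 lower of interferon-stimulated genes and 2 lower of stem cell markers. The class I median log2 fold change was then 0.13. The sign of the log2 fold change turned there for Psmb7 0.11 and Calr 0.021. With GC content from the longest transcript of any kind, an alternative added after seeing the data, the counts that moved became 1567 higher and 1499 lower of all genes, 1 higher of class I genes, 4 lower of other pathway genes, 2 higher and 1 lower of core proteasome genes, 0 lower of regulators, 7 lower of interferon-stimulated genes and 2 lower of stem cell markers. The class I median log2 fold change was then 0.11. The sign of the log2 fold change turned there for Psmb7 0.58. With a threshold of 0.01, the counts that moved became 1767 higher and 2042 lower of all genes, 5 lower of other pathway genes, 0 higher of core proteasome genes, 2 lower of regulators, 8 lower of interferon-stimulated genes and 1 higher and 0 lower of stem cell markers. With GC correction together with the replicate block, Tap2 was called higher (0.74, edgeR adjusted p = 0.0351) and Psmb10 lower (-0.48, edgeR adjusted p = 0.0125), and the counts that moved became 2 higher and 2 lower of class I genes, 1 higher of other pathway genes, 2 lower of core proteasome genes, 1 lower of regulators, 1 lower of fibroblast markers and 4 higher and 3 lower of stem cell markers. The class I median log2 fold change was then 0.15. The sign of the log2 fold change turned there for B2m 0.079, Psmb7 0.11 and Calr 0.022. With upper-quartile factors, the counts that moved became 2 higher of core proteasome genes. The sign of the log2 fold change turned there for Psmb8 0.042, Psmb7 0.040 and Calr 0.034. With total counts, the counts that moved became 3 higher of core proteasome genes, 2 lower of regulators and 0 lower of stem cell markers. The class I median log2 fold change was then 0.51. The sign of the log2 fold change turned there for Psmb8 0.11, Psmb10 0.045, H2-K1 0.025, Psmb7 0.10 and Calr 0.10. With the replicate number as a block, the counts that moved became 3 higher of core proteasome genes. With a threshold of 0.10, the counts that moved became 2 higher of core proteasome genes. With DESeq2, the counts that moved became 1 higher of interferon-stimulated genes. A stricter filter on low counts left out Psmb8 and Nlrc5, and the class I median log2 fold change over the remaining genes was 0.61. Their own values changed little, with 1.11 for Tap1 and 0.61 for H2-D1. With limma voom, the sign of the log2 fold change turned for Psmb8 0.047. Leaving out each library in turn, with and without GC correction, gave 400 to 3501 higher and 435 to 3851 lower of all genes, 0 to 4 higher and 0 to 2 lower of class I genes, 0 to 1 higher and 1 to 9 lower of other pathway genes, 0 to 4 higher and 0 to 4 lower of core proteasome genes. The same fits gave 1 to 8 higher and 0 to 4 lower of regulators, 0 to 2 higher and 1 to 12 lower of interferon-stimulated genes, 0 to 2 higher of blood and class II markers, 7 to 16 higher and 0 to 1 lower of fibroblast markers. The same fits gave 0 to 4 higher and 0 to 3 lower of stem cell markers. Log2 fold changes over those fits ran as follows: class I genes median -0.034 to 0.46, B2m -1.19 to 0.84, Psmb8 -0.76 to 0.38, Psmb9 -0.078 to 0.86, Psmb10 -0.73 to 0.16, H2-K1 -0.56 to 0.013, Nlrc5 -0.19 to 0.40. Further ranges were Psmb5 -0.013 to 0.64, Psmb6 -0.17 to 0.56, Psmb7 -0.14 to 0.24, Rfx5 -0.32 to 0.0056, Calr -0.052 to 0.055, Pdia3 -0.45 to 0.060.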
